A study of Mus musculus with 17 samples.

Results

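Rab GTPases are small membrane-bound switches that give each compartment of the cell its traffic identity: in the GTP-bound form a Rab recruits effectors that move, tether and fuse vesicles, exchange factors switch it on, and GTPase-activating proteins switch it off. Each Rab is best known for a station of the route, from the endoplasmic reticulum and Golgi through secretory granules, recycling endosomes and lysosomes. In blood, Rab-driven traffic is known for granule release by platelets, neutrophils and cytotoxic lymphocytes, and for the recycling of receptors in white cells and maturing red cells. The Rab genes were taken as all probe sets whose platform annotation gave 1 symbol made of Rab, a number and, in some, a letter. By this rule 59 Rab genes, read by 132 probe sets, were found among 18193 genes with 1 symbol, and the brightest probe set, by its average across all 17 arrays, stood for the gene. Of these, 48 passed the filter on low signal, as did 12696 genes in all, and 47 of the 48 lay above the array's median in every array. Rab40b, the exception, did so in 7 arrays: 2 of the controls, 1 at 0.5 Gy, 0 at 1.0 Gy and all 4 at 3.0 Gy. It thus passed the filter, which asks for 4 arrays, only through the group where it was highest, and nothing is drawn from its calls. It is 1 of the members counted below as higher at 3.0 Gy against control, 1.0 Gy and 0.5 Gy, and by the F test.

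Expression was measured in whole blood, with all its cell types together, of 17 female C57BL/6JJcl mice (an inbred laboratory strain) aged 8 weeks. The 5 controls received 0 Gy, and 4 mice per group received total-body X-rays (150 kVp, delivered at 1.0 Gy per min) of 0.5, 1.0 or 3.0 Gy. Blood was drawn 24 h later into RNA-stabilising tubes, and each mouse's RNA was hybridised to 1 Affymetrix array that reads the 3′ end of transcripts. Levels below are the deposited log2 values, so a difference of 1 is a doubling; changes are differences of group means with limma's standard error (SE), adjusted p-values come from limma with the Benjamini-Hochberg method over all 12696 genes, and a gene is called at an adjusted p under 0.05. Levels of different probe sets cannot be set against each other, since probes differ in brightness. The 3 dose comparisons share the same 5 controls, so they are not independent of each other.

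Marker genes of blood cells, from lists of genes typical of each type, were present, and the lists differed in how they changed with dose. Of all genes tested, 5.24%, 8.8% and 20% were called higher at 0.5, 1.0 and 3.0 Gy, and 5%, 8.49% and 29.2% lower. All 18 of 18 platelet and megakaryocyte genes tested were called higher at every dose, with median changes of 1.36, 1.87 and 1.90. Their mean level lay between 8.39 and 8.90 in the controls, 9.92 and 10.15 at 0.5 Gy, 10.32 and 10.66 at 1.0 Gy, and 10.13 and 10.84 at 3.0 Gy, so no irradiated array overlapped the controls. At 3.0 Gy 12 of 13 B cell genes and 10 of 13 T cell genes were called lower (median changes of -2.87 and -1.75), 9 of 12 neutrophil genes were called higher (median 1.09), and of 15 red cell genes 9 were called lower and 3 higher (median -0.85). At 0.5 and 1.0 Gy the red cell list had 4 and 5 of its genes called lower, the T cell list 2 and 4, and the B cell list 1 and 1. The B cell medians there were -0.32 and -0.20. Mean B cell levels were 7.37 to 8.06 in the controls and 4.79 to 6.05 at 3.0 Gy. The corresponding ranges were 6.84 to 7.65 and 5.67 to 5.96 for T cells, 6.92 to 7.48 and 7.69 to 8.64 for neutrophils, and 8.28 to 8.97 and 7.48 to 7.85 for red cells. NK cell genes (1 of 7 called lower at 3.0 Gy) and monocyte genes (6 of 10 lower, 2 higher) had mean levels that overlapped the controls. The part of these cell types in the Rab results was not tested, and in whole blood fewer cells of a type and less RNA per cell cannot be told apart. Control probe sets for 18S ribosomal RNA averaged 10.52 without irradiation, and 12.69, 13.28 and 10.68 from the lowest to the highest dose. They exceeded the controls by 2.17 and 2.76 at the lower doses (exact permutation test, two-sided, p = 0.00794 each, the smallest that 126 regroupings allow) and 0.16 at 3.0 Gy (p = 0.587, the same test). Single arrays read 9.82 to 11.18 in the controls, 11.76 to 13.43 at 0.5 Gy, 12.89 to 13.52 at 1.0 Gy and 10.50 to 10.84 at 3.0 Gy. The part of 18S was not tested beyond a fit with its level as a covariate, given where it ended a call. Since 18S at 0.5 and 1.0 Gy overlapped neither the controls nor 3.0 Gy, that fit cannot tell dose and 18S apart in those comparisons.

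At 0.5 Gy 6 Rab genes were called higher (12.5% of 48, against 5.24% of all genes tested) and 1 was called lower (2.08%, against 5%). That lower call, Rab8a, was lost without control replicate 1 or 4 or without 0.5 Gy replicate 1, 3 or 4, while 3 were called lower without 0.5 Gy replicate 2, and 2 without 1.0 Gy replicate 3 or 3.0 Gy replicate 2 or 4. At 1.0 Gy 9 were called higher (18.8%, against 8.8%) and 2 lower (4.17%, against 8.49%). At 3.0 Gy 18 were called higher (37.5%, against 20%) and 9 lower (18.8%, against 29.2%), so that 27 of 48 were called in either direction (56.2%, against 49.1%). The share of Rab genes called at 3.0 Gy was thus near that of all genes, with more of them higher and fewer lower. All irradiated arrays of a group lay above the range of the controls for 6, 9 and 12 Rab genes at the 3 doses (6.66%, 7.88% and 14.2% of all genes) and below it for 3, 3 and 7 (4.54%, 6.38% and 22.9% of all genes). Median changes of the Rab genes were 0.03, 0.09 and 0.28 from the lowest to the highest dose, beside -0.02, -0.04 and 0.04 for all genes. The split at 3.0 Gy depended on the scaling: after a repeated quantile normalization of the deposited values 28 Rab genes were called higher and 6 lower. The background moved too: among all 12696 genes higher calls went from 2534 to 3691 and lower calls from 3703 to 3321. The share of higher calls among all genes called thus went from 40.6% to 52.6%. An F test over the 3 dose comparisons called 22 Rab genes (45.8%, against 48.2% of all genes), which is near the background.

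**Figure D1:**
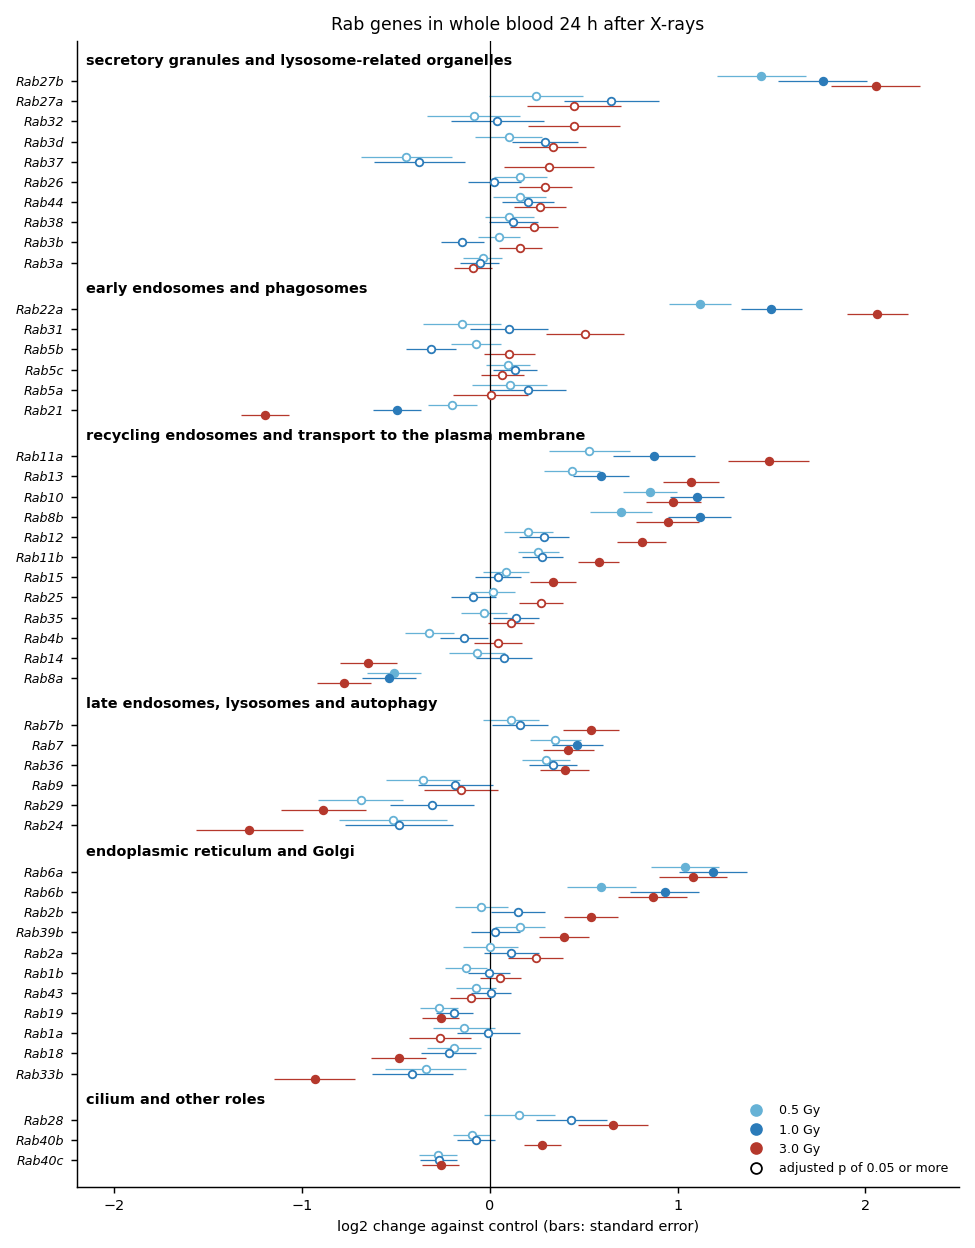
Log2 change against the 5 controls (horizontal axis, mean difference with its SE) of the 48 Rab genes tested, ordered by the compartment they are best known for, at 0.5, 1.0 and 3.0 Gy (4 mice each); filled points have an adjusted p under 0.05 in limma. The points spread with dose, and Rab22a and Rab27b lie farthest to the right at 3.0 Gy, at 2.06 and 2.05.

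The start regions of 5 members are shown here because they rose or fell at every dose and come as contrasts: Rab22a rose by 2.06 at 3.0 Gy, Rab6a and Rab10 rose almost as far at 0.5 Gy as at 3.0 Gy, and Rab8a fell while its close relative Rab8b rose. Each window runs from 250 bases before to 50 bases after the annotated start, 5′ to 3′ on the gene's strand, from RefSeq on build GRCm38.p6. The windows are chr2:173659595-173659894 for Rab22a (plus strand), chr7:100607336-100607635 for Rab6a (plus strand), chr12:3309920-3310219 for Rab10 (minus strand), chr9:66919656-66919955 for Rab8b (minus strand) and chr8:72160950-72161249 for Rab8a (plus strand). Capitals mark matches on either strand to 5 searched motifs, none of which contains another: the letters AGATAA are bound by GATA factors of blood, the core CCGGAA by factors of the ETS family, the palindrome CACGTG is the E-box, the element TGANTCA is shared by NF-E2 and by AP-1, and the letters GGGCGG form the GC box.
Rab22a: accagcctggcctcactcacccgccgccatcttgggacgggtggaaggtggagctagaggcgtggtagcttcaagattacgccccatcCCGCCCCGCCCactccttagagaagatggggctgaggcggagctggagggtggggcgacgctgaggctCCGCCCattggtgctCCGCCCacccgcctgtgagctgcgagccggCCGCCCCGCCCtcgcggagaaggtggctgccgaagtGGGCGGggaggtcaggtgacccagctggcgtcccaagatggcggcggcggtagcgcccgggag
Rab6a: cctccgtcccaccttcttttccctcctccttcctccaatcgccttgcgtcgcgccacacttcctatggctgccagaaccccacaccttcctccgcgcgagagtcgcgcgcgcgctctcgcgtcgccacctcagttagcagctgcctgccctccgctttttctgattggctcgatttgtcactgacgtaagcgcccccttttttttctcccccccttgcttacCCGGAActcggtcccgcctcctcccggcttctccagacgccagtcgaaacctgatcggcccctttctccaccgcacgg
Rab10: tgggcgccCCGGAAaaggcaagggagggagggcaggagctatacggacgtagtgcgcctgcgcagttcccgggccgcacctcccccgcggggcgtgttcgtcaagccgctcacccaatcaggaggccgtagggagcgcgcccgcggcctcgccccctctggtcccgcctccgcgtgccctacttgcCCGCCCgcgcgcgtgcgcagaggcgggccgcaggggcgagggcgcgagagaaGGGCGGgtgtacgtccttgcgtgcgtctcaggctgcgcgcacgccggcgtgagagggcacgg
Rab8b: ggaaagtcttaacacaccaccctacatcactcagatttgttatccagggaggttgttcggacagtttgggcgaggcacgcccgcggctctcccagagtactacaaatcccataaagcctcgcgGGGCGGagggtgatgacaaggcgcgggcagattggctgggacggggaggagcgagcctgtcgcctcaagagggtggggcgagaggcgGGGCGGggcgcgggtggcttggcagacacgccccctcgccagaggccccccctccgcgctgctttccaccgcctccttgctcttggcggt
Rab8a: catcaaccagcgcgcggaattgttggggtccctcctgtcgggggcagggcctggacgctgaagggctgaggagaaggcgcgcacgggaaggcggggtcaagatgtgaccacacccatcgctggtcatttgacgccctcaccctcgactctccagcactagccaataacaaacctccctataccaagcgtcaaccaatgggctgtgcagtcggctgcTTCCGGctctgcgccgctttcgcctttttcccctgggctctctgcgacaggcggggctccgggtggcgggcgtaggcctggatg

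GC boxes were found 7 times before and around the start of Rab22a, 2 times in each of Rab10 and Rab8b, and not in the windows of Rab6a and Rab8a. An ETS core stood once in each of Rab6a, Rab10 and Rab8a. No window of the 5 held the searched GATA, E-box or NF-E2 letters, which says only that those letters are not in this stretch. The symbols of all 59 Rab genes, tested or not, were matched to annotated windows, and 48 of them had 60 windows. Of these 60 windows, 68.3% held a GC box, 25% an ETS core, 10% an E-box, 5% the NF-E2 motif and 3.33% the GATA motif. The shares among all 32851 windows of the same length were 35.7%, 14.9%, 7.15%, 7.81% and 11.2%. Windows of the Rab genes were richer in G and C, with a median of 61.2% against 52.7% for all windows, and the part of base composition in these shares was not tested. These matches describe the letters and mark no site of binding.

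Among the Rab genes of secretory granules and lysosome-related organelles, 1 of 10 tested was called at each dose, and it was Rab27b, called higher; of all genes, 5.24%, 8.8% and 20% were called higher and 5%, 8.49% and 29.2% lower at 0.5, 1.0 and 3.0 Gy. Rab27b docks secretory granules at the plasma membrane and is known for the dense granules of platelets. Its level was (probe set 1417214_at) 7.57, 7.78, 8.02, 8.07 and 8.15 in the 5 controls, 9.22, 9.22, 9.45 and 9.56 at 0.5 Gy, 9.61, 9.14, 9.93 and 10.08 at 1.0 Gy and 10.17, 9.02, 10.48 and 10.22 at 3.0 Gy. Every irradiated array lay above every control, and the lowest of the 12 was replicate 2 of the 3.0 Gy group. Rab27b rose by 1.45 ± 0.24 (adjusted p = 0.000452), 1.77 ± 0.24 (adjusted p = 2.01e-05) and 2.05 ± 0.24 (adjusted p = 1.05e-06) at the 3 doses, or 2.72, 3.42 and 4.16 times. With the 18S level as a covariate its calls at 0.5 and 1.0 Gy ended. Its 3 other probe sets were higher too: at 3.0 Gy they read 2.39, 2.20 and 0.91, each called in a fit over all 45037 probe sets.

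Rab27a, the relative of Rab27b that carries melanosomes and the lytic granules of cytotoxic lymphocytes, was not called: its changes were 0.25 ± 0.25, 0.65 ± 0.25 and 0.45 ± 0.25 (adjusted p = 0.656, 0.0885 and 0.145). Its change minus that of Rab27b was -1.20, -1.13 and -1.61, with exact two-sided permutation p = 0.0238, 0.0556 and 0.0159 (adjusted p = 0.0884 at 3.0 Gy over the 39 comparisons made between close relatives, so the difference did not pass). With so few mice, no difference could pass unless several of the 39 comparisons had p-values near the smallest possible, so not passing cannot show that relatives changed alike. The other 8 members of this group that were tested, Rab3a, Rab3b and Rab3d (regulated exocytosis), Rab26 (secretory granules), Rab32 and Rab38 (melanosomes and platelet dense granules), Rab37 and Rab44 (mast cell granules), were not called against control either. The changes against control of the 9 members not called there lay between -0.44 and 0.65 over the 3 doses. Rab3b was higher at 3.0 than at 1.0 Gy by 0.31 ± 0.12 (adjusted p = 0.0472), a call that ended in 16 of 27 settings. Rab37 read 5.16, 5.25, 5.32, 5.77 and 5.30 in the controls, 5.13, 4.75, 4.91 and 4.87 at 0.5 Gy, 5.19, 4.54, 4.97 and 5.25 at 1.0 Gy and 5.61, 4.68, 6.33 and 6.07 at 3.0 Gy. At 3.0 Gy replicate 2 lay below every control, and 2 of the other 3 arrays lay above them all. Its change of 0.31 ± 0.24 (adjusted p = 0.283) at 3.0 Gy became 0.65 without that replicate and was then called (adjusted p = 0.00643). Rab37 was higher at 3.0 than at 0.5 Gy by 0.76 ± 0.25 (adjusted p = 0.0273) and than at 1.0 Gy by 0.69 ± 0.25 (adjusted p = 0.039), calls that ended in 7 and 8 of 28 settings.

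**Figure D2:**
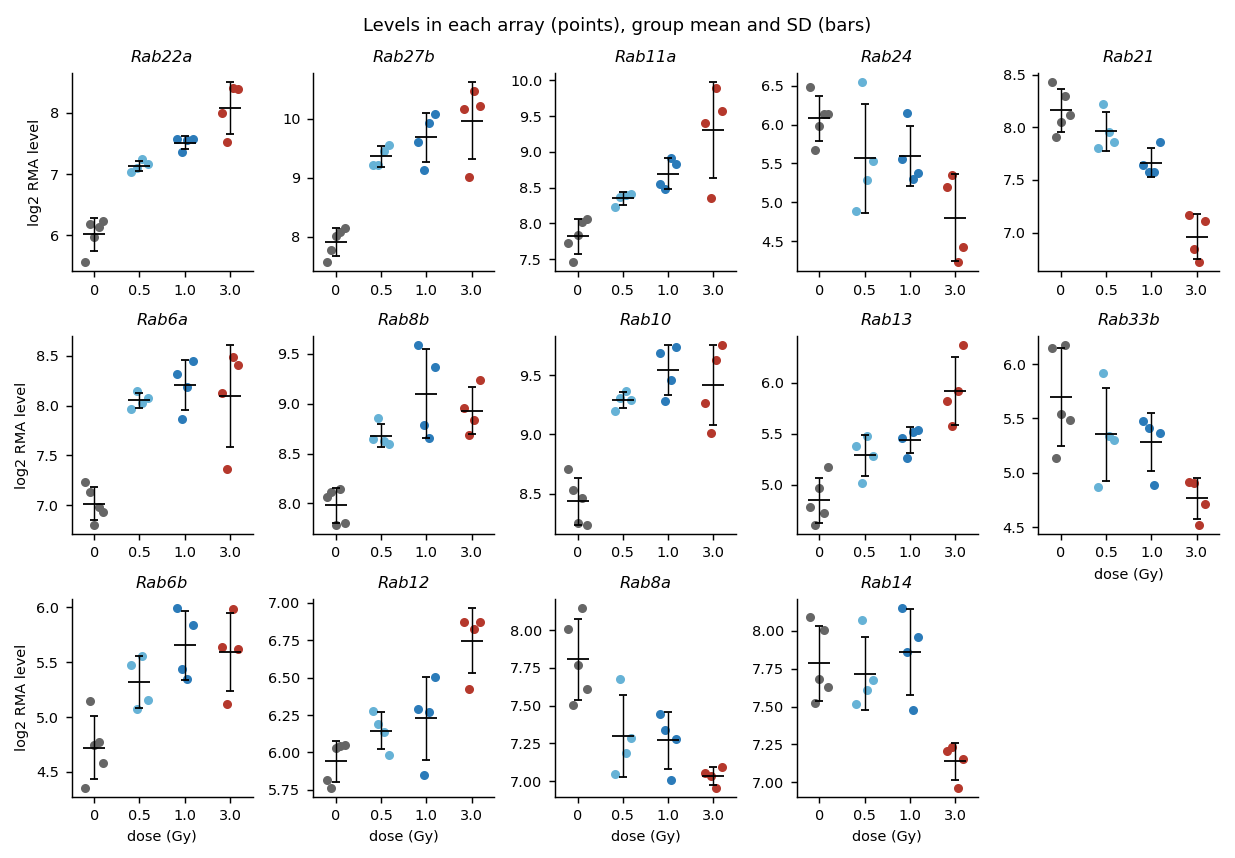
Level (log2, vertical axis) of 14 Rab genes in each array (points) with mean and SD (bars) in the 5 control mice and the 4 mice each at 0.5, 1.0 and 3.0 Gy. Rab22a and Rab27b lie above all controls from 0.5 Gy on, and all 3.0 Gy arrays of Rab24 and Rab33b lie below the controls.

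Of 6 Rab genes of early endosomes and phagosomes, Rab22a was called higher at every dose (5.24%, 8.8% and 20% of all genes) and Rab21 lower at 1.0 and 3.0 Gy (8.49% and 29.2% of all genes). Rab22a steers cargo from early endosomes into the recycling route. It read (probe set 1451379_at) 5.56, 6.18, 5.98, 6.14 and 6.23 in the controls, 7.04, 7.10, 7.24 and 7.16 at 0.5 Gy, 7.57, 7.35, 7.56 and 7.57 at 1.0 Gy and 8.00, 7.52, 8.41 and 8.39 at 3.0 Gy. All 12 irradiated arrays lay above the controls, the 1.0 Gy arrays lay above those at 0.5 Gy, and the 3.0 Gy arrays overlapped the 1.0 Gy arrays through replicate 2. Rab22a rose by 1.12 ± 0.16 (adjusted p = 0.000143), 1.5 ± 0.16 (adjusted p = 2.04e-06) and 2.06 ± 0.16 (adjusted p = 2.23e-08), which is 2.17, 2.83 and 4.18 times. It was also higher at 3.0 than at 1.0 Gy, by 0.57 ± 0.17 (adjusted p = 0.0158), a call that ended in 4 of 28 settings. With the 18S level as a covariate its call at 0.5 Gy ended. The size depended on the probe set: the 3 others rose by 0.51 to 0.66 at 3.0 Gy, all called.

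Rab21 acts on endosomes and is known for the traffic of integrins. It read (probe set 1437741_at) 8.43, 7.91, 8.05, 8.30 and 8.12 in the controls, 7.81, 8.22, 7.95 and 7.87 at 0.5 Gy, 7.64, 7.58, 7.58 and 7.86 at 1.0 Gy and 7.17, 6.85, 6.72 and 7.11 at 3.0 Gy. The arrays at 0.5 Gy overlapped the controls, those at 1.0 and 3.0 Gy lay below all of them, and the 3.0 Gy arrays lay below every other array. Its change was -0.20 ± 0.13 (adjusted p = 0.408), -0.50 ± 0.13 (adjusted p = 0.0106) and -1.20 ± 0.13 (adjusted p = 5.01e-07), the last a level 2.29-fold lower than that of the controls. The second probe set of Rab21 gave -0.30 at 3.0 Gy (adjusted p = 0.046) and 0.10 at 1.0 Gy (adjusted p = 0.676), and with all probe sets averaged, or with the 18S level as a covariate, the call at 1.0 Gy ended. Rab5a, Rab5b and Rab5c, which drive the fusion of early endosomes, and Rab31 were not called against control, with changes between -0.31 and 0.50. Rab5b was higher at 3.0 than at 1.0 Gy by 0.42 ± 0.14 (adjusted p = 0.0276), a call that ended in 5 of 26 settings. Rab31, which works between the Golgi and endosomes, lay at the threshold at 3.0 Gy with 0.50 ± 0.21 (adjusted p = 0.0512), and it was called there in 15 of 28 alternative settings. It was higher at 3.0 than at 0.5 Gy by 0.65 ± 0.22 (adjusted p = 0.0277), a call that ended in 8 of the 28.

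The Rab genes of recycling endosomes and of transport to the plasma membrane were called in both directions: of 12 tested, 2, 4 and 7 were called higher and 1, 1 and 2 lower at 0.5, 1.0 and 3.0 Gy, beside 5.24%, 8.8% and 20% higher and 5%, 8.49% and 29.2% lower among all genes. Rab11a and Rab11b are the defining Rabs of the recycling endosome. Rab11a read (probe set 1449256_a_at) 7.73, 7.46, 7.84, 8.02 and 8.06 in the controls, 8.22, 8.37, 8.40 and 8.42 at 0.5 Gy, 8.55, 8.48, 8.92 and 8.83 at 1.0 Gy and 9.41, 8.35, 9.89 and 9.58 at 3.0 Gy. Every irradiated array lay above the controls, and replicate 2 of the 3.0 Gy group, at 8.35, lay among those given 0.5 Gy while the 3 others read 9.41 or more. The change of Rab11a was 0.53 ± 0.22 (adjusted p = 0.146), 0.87 ± 0.22 (adjusted p = 0.00754) and 1.48 ± 0.22 (adjusted p = 1.48e-05), and without that replicate it was 1.80 at 3.0 Gy. The call at 1.0 Gy ended with the 18S covariate. Its other probe set read 0.96, 1.25 and 1.91, and it was called at each dose, 0.5 Gy included (adjusted p = 0.0376).

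Rab11b rose at 3.0 Gy by 0.58 ± 0.11 (adjusted p = 0.000221), with changes of 0.26 and 0.28 at the lower doses that were not called. The change of Rab11a exceeded that of Rab11b by 0.27, 0.59 and 0.90 (exact two-sided permutation p = 0.159, 0.0159 and 0.0159, adjusted p = 0.0884 for the last), a difference that did not pass after adjustment. Rab25, a relative of both that is best known in epithelia, was not called against control.

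Rab10 and Rab13 are known for the delivery of membrane proteins to the cell surface, among them the glucose transporter of fat and muscle. Rab10 read (probe set 1453095_at) 8.71, 8.53, 8.25, 8.46 and 8.24 in the controls, 9.20, 9.30, 9.37 and 9.29 at 0.5 Gy, 9.69, 9.28, 9.46 and 9.73 at 1.0 Gy and 9.26, 9.01, 9.63 and 9.75 at 3.0 Gy. No irradiated array overlapped the controls, and the dose groups overlapped each other. Its change was 0.85 ± 0.15 (adjusted p = 0.000659), 1.10 ± 0.15 (adjusted p = 1.7e-05) and 0.98 ± 0.15 (adjusted p = 1.77e-05), and it was called at all doses in each of 28 alternative settings. Of its other probe sets, 1 gave 1.15 at 3.0 Gy and the second 0.49, which was not called (adjusted p = 0.0839).

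Rab13 read (probe set 1424894_at) 4.78, 4.61, 4.97, 4.73 and 5.17 in the controls, 5.38, 5.02, 5.48 and 5.28 at 0.5 Gy, 5.46, 5.26, 5.52 and 5.54 at 1.0 Gy and 5.82, 5.57, 5.92 and 6.37 at 3.0 Gy. Arrays at 0.5 Gy overlapped the highest control, those at higher doses did not. Its change was 0.44 ± 0.15 (adjusted p = 0.0716), 0.59 ± 0.15 (adjusted p = 0.00852) and 1.07 ± 0.15 (adjusted p = 8.73e-06); the call at 1.0 Gy ended with the 18S covariate.

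Rab8a and Rab8b carry cargo from the Golgi and recycling endosomes to the plasma membrane, and they went in opposite directions. Rab8b read (probe set 1426799_at) 8.07, 8.11, 7.79, 8.14 and 7.80 in the controls, 8.64, 8.85, 8.63 and 8.60 at 0.5 Gy, 9.59, 8.79, 8.66 and 9.36 at 1.0 Gy and 8.96, 8.68, 8.83 and 9.24 at 3.0 Gy. Rab8a read (probe set 1418692_at) 8.01, 7.51, 7.77, 8.15 and 7.61 in the controls, 7.04, 7.68, 7.19 and 7.28 at 0.5 Gy, 7.45, 7.34, 7.01 and 7.28 at 1.0 Gy and 7.05, 7.03, 6.96 and 7.09 at 3.0 Gy. For Rab8b all irradiated arrays lay above the controls. For Rab8a all arrays at 1.0 and 3.0 Gy lay below them, while replicate 2 at 0.5 Gy, at 7.68, lay within their range.

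Rab8b rose by 0.70 ± 0.17 (adjusted p = 0.0102), 1.12 ± 0.17 (adjusted p = 7.04e-05) and 0.95 ± 0.17 (adjusted p = 0.000111), and Rab8a changed by -0.51 ± 0.14 (adjusted p = 0.0278), -0.54 ± 0.14 (adjusted p = 0.0125) and -0.77 ± 0.14 (adjusted p = 0.00019). The change of Rab8a minus that of Rab8b was -1.21, -1.66 and -1.72, outside the control range at every dose. Each had an exact two-sided permutation p = 0.00794, the smallest the design allows. The adjusted p = 0.0774 over the 39 comparisons of relatives did not pass, and could not have unless more comparisons had reached such small p-values. Of the 39 comparisons, 11 had an unadjusted p under 0.05 and 0 an adjusted one. The fall of Rab8a rests on 1 probe set. A second one above the filter read 0.15, 0.12 and 0.18 (adjusted p = 0.207 at 3.0 Gy), and with the probe sets averaged no dose was called for Rab8a. With the 18S covariate the calls at 0.5 Gy of both genes and at 1.0 Gy of Rab8a ended.

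**Figure D3:**
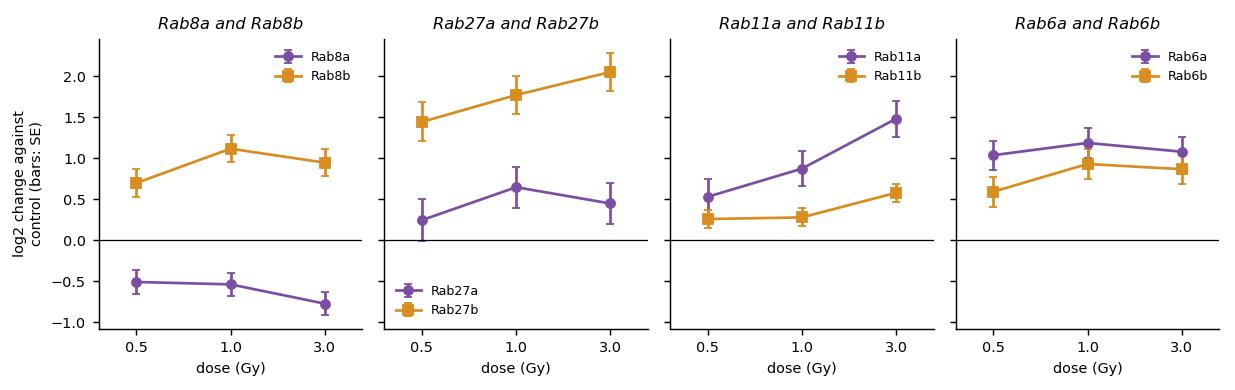
Log2 change against control with its SE (vertical axis) at 0.5, 1.0 and 3.0 Gy (horizontal axis) of 4 pairs of closely related Rab genes: Rab8a and Rab8b, Rab27a and Rab27b, Rab11a and Rab11b, Rab6a and Rab6b. Rab8a lies below 0 and Rab8b above it at each dose, and Rab6a lies above Rab6b by 0.45, 0.26 and 0.21 at the 3 doses.

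Rab12, which sends the transferrin receptor towards degradation, read (probe set 1427992_a_at) 5.82, 5.77, 6.03, 6.04 and 6.05 in the controls, 6.27, 6.19, 6.13 and 5.98 at 0.5 Gy, 6.29, 5.85, 6.27 and 6.51 at 1.0 Gy and 6.88, 6.42, 6.82 and 6.87 at 3.0 Gy. Only the 3.0 Gy arrays lay wholly above the controls. Its change was 0.21 ± 0.13 (adjusted p = 0.405), 0.29 ± 0.13 (adjusted p = 0.156) and 0.81 ± 0.13 (adjusted p = 5.09e-05), and 0.52 ± 0.14 (adjusted p = 0.00759) between 3.0 and 1.0 Gy. A second probe set gave 0.21 at 3.0 Gy, not called (adjusted p = 0.142).

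Rab14, which moves cargo between the Golgi and endosomes, read (probe set 1419246_s_at) 8.09, 7.52, 7.68, 8.01 and 7.63 in the controls, 7.52, 8.07, 7.61 and 7.68 at 0.5 Gy, 8.15, 7.86, 7.48 and 7.96 at 1.0 Gy and 7.21, 7.23, 6.97 and 7.15 at 3.0 Gy. The 3.0 Gy arrays lay below all others, and the lower doses overlapped the controls. Its change was -0.65 ± 0.15 (adjusted p = 0.00151) at 3.0 Gy, after -0.07 and 0.08 at the lower doses, which were not called. The probe set used is of a type that can bind related transcripts, and the 5 others above the filter disagreed: 1 read -1.33 and was called, and 4 lay between -0.26 and 0.14 and were not. Without probe sets of that type Rab14 changed by 0.10 at 3.0 Gy (adjusted p = 0.546). Rab15, a regulator of recycling best known in neurons, rose at 3.0 Gy by 0.33 ± 0.12 (adjusted p = 0.0306), a call that ended in 6 of 28 settings. Rab25, Rab35 and Rab4b, which act in fast and slow recycling, had changes between -0.32 and 0.27 and were not called against control. Rab25 was higher at 3.0 than at 1.0 Gy by 0.36 ± 0.13 (adjusted p = 0.0306), a call that ended in 8 of 28 settings. Rab4b was higher at 3.0 than at 0.5 Gy by 0.36 ± 0.14 (adjusted p = 0.0455), a call that ended in 12 of 28.

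Rab genes of late endosomes, lysosomes and autophagy had 0, 1 and 3 of 6 called higher and 0, 0 and 2 called lower at the 3 doses, with 5.24%, 8.8% and 20% of all genes higher and 5%, 8.49% and 29.2% lower. Rab7, the main Rab of late endosomes and lysosomes, changed by 0.35 ± 0.14 (adjusted p = 0.125), 0.47 ± 0.14 (adjusted p = 0.0222) and 0.42 ± 0.14 (adjusted p = 0.0162). Its call at 1.0 Gy ended in 7 of 28 settings and that at 3.0 Gy in 2. A second probe set above the filter read 0.05, 0.02 and 0.36 at the 3 doses. With the probe sets averaged, or with the 18S level as a covariate, the call at 1.0 Gy ended. Rab7b, which acts between late endosomes and the Golgi, and Rab36 rose at 3.0 Gy by 0.54 ± 0.15 (adjusted p = 0.00587) and 0.40 ± 0.13 (adjusted p = 0.0156), and the call of Rab36 ended without replicate 3 of the 3.0 Gy group.

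Rab24, a divergent Rab linked to autophagy, read (probe set 1421872_at) 6.48, 5.68, 5.99, 6.13 and 6.13 in the controls, 4.89, 6.54, 5.29 and 5.54 at 0.5 Gy, 5.56, 6.15, 5.30 and 5.38 at 1.0 Gy and 5.20, 5.35, 4.23 and 4.42 at 3.0 Gy. At 0.5 Gy the arrays spread from below to above the controls, and at 3.0 Gy all 4 lay below them. Its change was -0.52 ± 0.29 (adjusted p = 0.319), -0.48 ± 0.29 (adjusted p = 0.29) and -1.28 ± 0.29 (adjusted p = 0.00112). Its second probe set gave -0.68 at 3.0 Gy (adjusted p = 0.00511). Rab29, known for recruiting the kinase Lrrk2 to membranes, fell at 3.0 Gy with a change of -0.89 ± 0.22 (adjusted p = 0.00299), and at 0.5 Gy its change of -0.69 was not called (adjusted p = 0.0584). Its 3.0 Gy arrays, at 4.72 to 6.07, overlapped the controls at 5.99 to 6.57. Rab9, which returns receptors from late endosomes to the Golgi, was not called, with changes between -0.35 and -0.15.

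Among 11 Rab genes of the endoplasmic reticulum and Golgi, 2, 2 and 4 were called higher and 0, 0 and 3 lower at the 3 doses. Among all genes the shares were 5.24%, 8.8% and 20% higher and 5%, 8.49% and 29.2% lower, and the lower calls at 3.0 Gy were near that background. Rab6a and Rab6b govern retrograde traffic through the Golgi. Rab6a read (probe set 1448305_at) 7.24, 7.13, 6.80, 6.98 and 6.93 in the controls, 7.96, 8.15, 8.03 and 8.07 at 0.5 Gy, 8.32, 7.86, 8.19 and 8.45 at 1.0 Gy and 8.13, 7.37, 8.49 and 8.41 at 3.0 Gy. All irradiated arrays lay above the controls, and replicate 2 at 3.0 Gy, at 7.37, was the lowest of them. Rab6a changed by 1.04 ± 0.18 (adjusted p = 0.000731), 1.19 ± 0.18 (adjusted p = 7.81e-05) and 1.08 ± 0.18 (adjusted p = 5.9e-05), the last becoming 1.33 without that replicate. Its other probe sets gave 1.49 and 1.13 at 3.0 Gy, both called, and the calls at 0.5 and 1.0 Gy ended with the 18S covariate.

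Rab6b read (probe set 1434914_at) 4.36, 5.15, 4.75, 4.77 and 4.59 in the controls, 5.48, 5.07, 5.56 and 5.16 at 0.5 Gy, 5.99, 5.43, 5.35 and 5.84 at 1.0 Gy and 5.64, 5.12, 5.98 and 5.62 at 3.0 Gy. Control replicate 2, at 5.15, overlapped the irradiated arrays at 0.5 and 3.0 Gy. Its change was 0.59 ± 0.18 (adjusted p = 0.0458), 0.93 ± 0.18 (adjusted p = 0.00116) and 0.87 ± 0.18 (adjusted p = 0.000676), and the call at 0.5 Gy ended in 14 of 28 settings. The 3 other probe sets of Rab6b gave 1.14, 0.43 and 1.17 at 3.0 Gy, all called. At 0.5 Gy they gave 0.20, 0.00 and 0.44, none called. The change of Rab6a exceeded that of Rab6b by 0.45, 0.26 and 0.21, with exact two-sided permutation p = 0.0794, 0.246 and 0.333.

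Rab33b, a Golgi Rab that binds the autophagy protein Atg16l1, read (probe set 1423083_at) 6.15, 5.14, 5.54, 6.18 and 5.49 in the controls, 4.87, 5.91, 5.34 and 5.30 at 0.5 Gy, 5.47, 5.41, 4.88 and 5.37 at 1.0 Gy and 4.91, 4.91, 4.52 and 4.71 at 3.0 Gy. The lower doses overlapped the controls and the 3.0 Gy arrays did not. Its change was -0.34 ± 0.21 (adjusted p = 0.389), -0.41 ± 0.21 (adjusted p = 0.217) and -0.93 ± 0.21 (adjusted p = 0.00138). Rab18, known for lipid droplets, fell at 3.0 Gy with a change of -0.48 ± 0.15 (adjusted p = 0.0101), and so did Rab19 with -0.26 ± 0.10 (adjusted p = 0.0361), calls that ended in 3 and 8 of 28 settings. Rab2b and Rab39b rose at 3.0 Gy by 0.54 ± 0.14 (adjusted p = 0.00413) and 0.39 ± 0.13 (adjusted p = 0.0187), the latter call ending without control replicate 1. Rab1a and Rab1b, which take cargo from the endoplasmic reticulum to the Golgi, Rab2a and Rab43 were not called, with changes between -0.27 and 0.24. For Rab2a the probe sets were at odds: the one used read 0.24 at 3.0 Gy and another -0.66, which was called (adjusted p = 0.0101).

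Of the remaining 3 members tested, Rab28 and Rab40c were called at 3.0 Gy and at no lower dose. At 3.0 Gy 20% of all genes were called higher and 29.2% lower. Rab28, known from cilia and photoreceptors, rose by 0.66 ± 0.19 (adjusted p = 0.00718) and kept its call in all 28 settings. Its 3.0 Gy arrays, at 5.74 to 6.75, overlapped the controls at 5.42 to 6.16. Arrays at 3.0 Gy also overlapped the controls for Rab15, Rab18, Rab29, Rab36, Rab6b and Rab7b, which were called there. Rab40c, which carries a SOCS box and takes part in ubiquitin ligases as does Rab40b, fell with a change of -0.26 ± 0.10 (adjusted p = 0.0363), a call that ended in 8 of 28 settings. Rab40b averaged 3.52 ± 0.11 in the controls (SD, n = 5) and 3.80 ± 0.15 at 3.0 Gy (SD, n = 4), values that are given as a description because of the way it passed the filter.

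**Figure D4:**
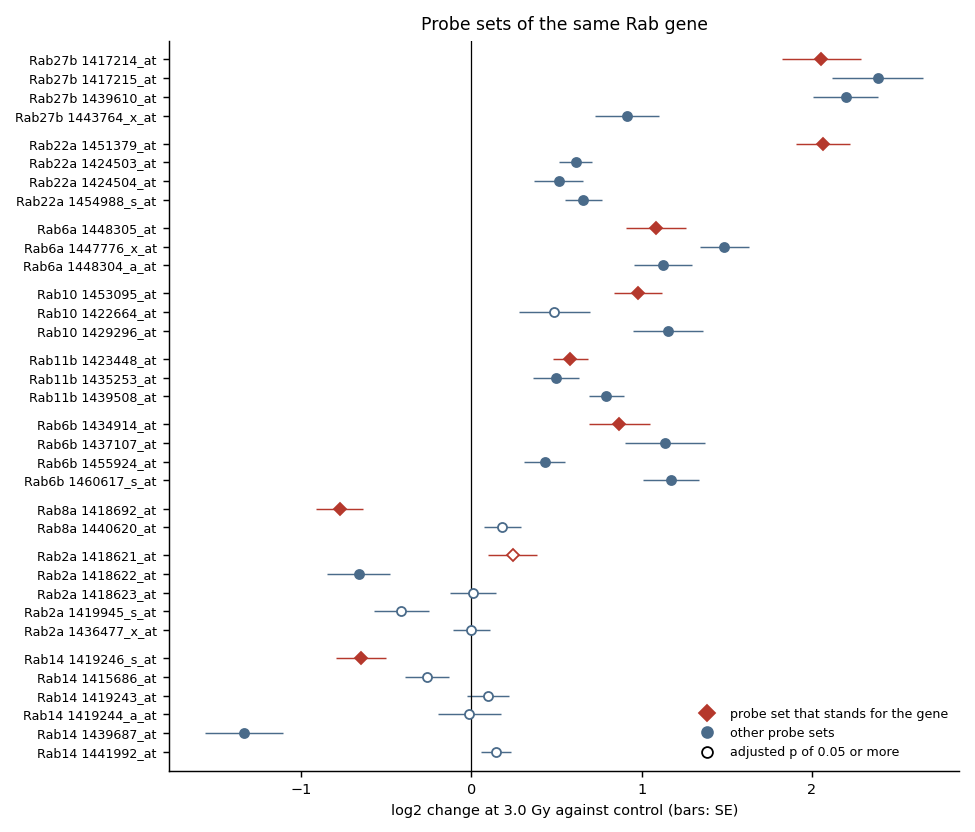
Log2 change at 3.0 Gy against control with its SE (horizontal axis) of each probe set of 9 Rab genes; filled points have an adjusted p under 0.05 over all probe sets, and the probe set used for the gene is marked. All 4 probe sets of Rab27b lie above 0, whereas those of Rab14 run from -1.33 to 0.14.

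The 11 members that did not pass the filter were Rab17, Rab20, Rab23, Rab30, Rab33a, Rab34, Rab39, Rab3c, Rab42, Rab4a and Rab9b. Their levels lay between 1.60 and 3.71 over all arrays, and none was above the array's median in more than 2 arrays, so no change was tested. Among the 48 tested, 25 had several probe sets above the filter. Rab2a at 3.0 Gy was the only case in which another probe set was called in the direction opposite to the one used.

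Between doses, 12 Rab genes were called higher at 3.0 than at 1.0 Gy (25%, against 15.9% of all genes) and 3 lower (6.25%, against 22.7%). The lower ones were Rab14, Rab21 and Rab24. The higher ones were Rab11a, Rab11b, Rab12, Rab13, Rab22a, Rab25, Rab2b, Rab37, Rab39b, Rab3b, Rab40b and Rab5b. Against 0.5 Gy, 11 were called higher at 3.0 Gy (22.9%, against 12.9%) and 2 lower, Rab14 and Rab21 (4.17%, against 20.9%). Those higher were Rab11a, Rab11b, Rab12, Rab13, Rab22a, Rab2b, Rab31, Rab37, Rab40b, Rab4b and Rab7b. Both counts of higher calls include Rab40b, from which nothing is drawn because of the way it passed the filter. Between 1.0 and 0.5 Gy limma called 0 Rab genes in either direction, and over all genes 0 higher (0%) and 2 lower (0.0158%); at an unadjusted p under 0.05 there were 3 Rab genes (Rab21, Rab22a and Rab8b) and 735 genes in all. These counts moved when single arrays were left out. The count of 12 was 2 without 3.0 Gy replicate 4, 4 without 1.0 Gy replicate 2, 5 without 1.0 Gy replicate 1 or 4 or 3.0 Gy replicate 1 or 3, and 7 without 0.5 Gy replicate 4. That of 11 was 6 without replicate 4 of the 0.5 or the 3.0 Gy group, and 7 without 0.5 Gy replicate 1 or 3 or 3.0 Gy replicate 3. The 3 lower calls were 5 without 1.0 Gy replicate 3, and the 2 lower calls were 4 without 0.5 Gy replicate 1. With the 18S covariate every between-dose count was 0. The 18S levels at 3.0 Gy did not overlap those at 0.5 or 1.0 Gy, so that fit could not tell dose and 18S apart. Replicate 2 of the 3.0 Gy group was the lowest of its group in 13 of the 18 members called higher. It had the lowest platelet mean of that group (10.13) and the highest B cell mean (6.05, against 4.79 to 4.85 in the 3 others), and without it 19 members were called higher and 8 lower at 3.0 Gy. Calls among all genes were not counted with single arrays left out, so these counts have no background beside them.

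The genes that serve the Rab cycle were called in both directions. Their counts at 0.5, 1.0 and 3.0 Gy stand against 5.24%, 8.8% and 20% of all genes called higher and 5%, 8.49% and 29.2% called lower. Of 7 genes tested for prenylation, escort and recycling of Rab proteins, 0, 0 and 1 were called higher and 1, 2 and 3 lower. Rabggtb, the catalytic subunit that attaches the lipid anchor to Rabs, changed by -0.50 ± 0.13, -0.47 ± 0.13 and -0.53 ± 0.13 (adjusted p = 0.0209, 0.02 and 0.00302). At 3.0 Gy Fnta, a subunit of other prenyltransferases, and Rabif, a chaperone of nucleotide-free Rabs, changed by -1.29 ± 0.22 (adjusted p = 6.3e-05) and -0.67 ± 0.13 (adjusted p = 0.000372), and Rabac1, a Golgi membrane protein that binds Rabs, rose by 0.54 ± 0.16 (adjusted p = 0.00954).

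Of 30 exchange factors, 3, 5 and 4 were called higher and 1, 1 and 8 lower, which at 3.0 Gy is near the 29.2% of all genes for the lower calls and under the 20% for the higher ones. Dennd4c, an exchange factor for Rab10, rose by 0.92 ± 0.17, 1.17 ± 0.17 and 1.13 ± 0.17 (adjusted p = 2.67e-05), and Dennd5a by 0.59 ± 0.14, 0.87 ± 0.14 and 0.97 ± 0.14 (adjusted p = 1.1e-05). Its relative Dennd5b fell at 3.0 Gy with a change of -1.56 ± 0.21 (adjusted p = 6.86e-06). Ccz1, a member of the complex that activates Rab7, changed by -0.49 ± 0.15 (adjusted p = 0.0398) at 0.5 Gy, -0.30 ± 0.15 (adjusted p = 0.197) at 1.0 Gy and -1.08 ± 0.15 (adjusted p = 6.91e-06) at 3.0 Gy.

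Of 33 GTPase-activating proteins, 1, 4 and 6 were called higher and 0, 1 and 5 lower (20% and 29.2% of all genes at 3.0 Gy). Evi5, which acts on Rab11, averaged 7.22, 8.00, 8.24 and 8.69 from the controls to 3.0 Gy and rose by 0.78 ± 0.15, 1.02 ± 0.15 and 1.47 ± 0.15 (adjusted p = 2.18e-07). Tbc1d10c, which is abundant in lymphocytes, Rab3gap1 and Rabgap1 were called at 3.0 Gy only, with changes of -1.62 ± 0.19 (adjusted p = 1.59e-06), -0.80 ± 0.15 (adjusted p = 0.000221) and -0.70 ± 0.15 (adjusted p = 0.000933).

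The 37 effectors tested had 3, 5 and 10 called higher and 0, 1 and 9 lower, beside 20% and 29.2% of all genes at 3.0 Gy. Sytl4 (granuphilin), a Rab27 effector that docks granules, averaged 6.07, 7.58, 7.91 and 8.17 from the controls to 3.0 Gy and rose by 1.51 ± 0.18, 1.84 ± 0.18 and 2.10 ± 0.18 (adjusted p = 6.08e-08). Bicd2, which links Rab6 vesicles to dynein, rose by 1.61 ± 0.16, 1.89 ± 0.16 and 1.91 ± 0.16 (adjusted p = 4.43e-08). Exoc6, the exocyst subunit that binds Rab11, rose by 0.84 ± 0.15, 1.22 ± 0.15 and 1.47 ± 0.15 (adjusted p = 2e-07). Rabep2, an effector of early endosomes, was called at 3.0 Gy with a change of -2.08 ± 0.21 (adjusted p = 2.89e-07).

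Of 5 Rab-like genes, Rabl6 was called lower at every dose (-0.50 ± 0.15, -0.67 ± 0.15 and -0.51 ± 0.15) and Ift22, a part of the ciliary transport machinery, higher at 3.0 Gy, by 0.44 ± 0.12 (adjusted p = 0.00576). Rabl2 and Rabl3 were not called, with changes of 0.24 and -0.05 at 3.0 Gy. The median changes at 3.0 Gy were -0.26 for the prenylation and escort genes, -0.14 for exchange factors, 0.04 for GTPase-activating proteins, -0.01 for effectors and -0.05 for Rab-like genes, beside 0.04 for all genes tested.

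**Figure D5:**
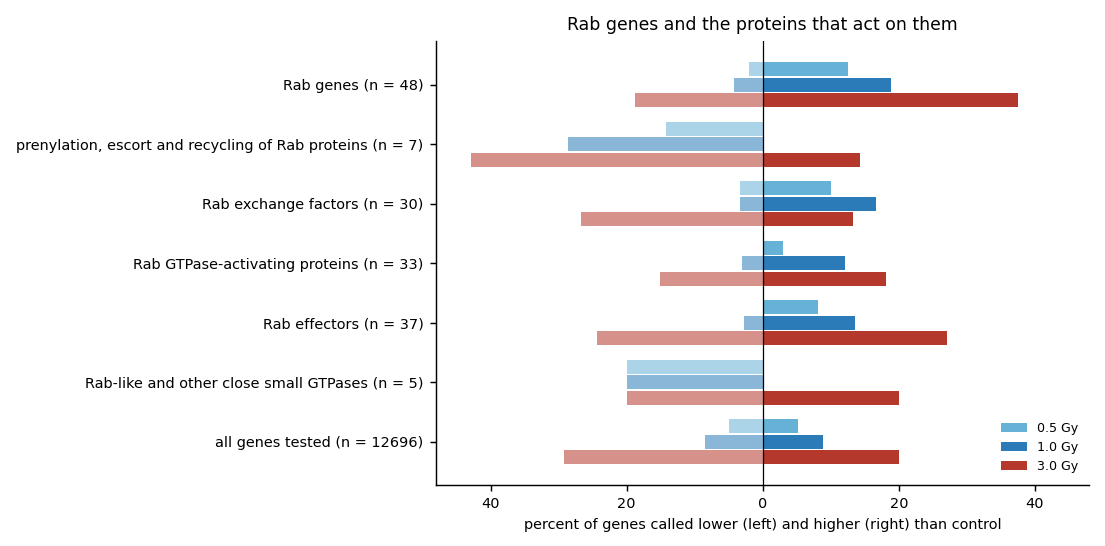
Percent of the tested genes called lower or higher (adjusted p under 0.05, limma) at 0.5, 1.0 and 3.0 Gy against control in the Rab genes, in each list of the Rab cycle and in all 12696 genes. At 3.0 Gy 37.5% of Rab genes were called higher, against 20% of all genes.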

How the data were processed

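Whole-blood RNA of 17 mice was measured on 1 array each. The values are on a log2 scale, as the authors deposited them, for 45101 probe sets. The submitters' processing notes name RMA (which corrects background, equalises the arrays' intensity distributions and summarises each probe set) and R 3.3.2; its settings and software are not given in the sources here. Because RMA equalises the arrays, a shift of most genes 1 way is partly removed, and changes of dim probe sets are understated. The platform annotation gave 34945 probe sets 1 symbol, 932 several and 9160 none, and 64 were controls. A gene was its probe set with the highest mean, kept when above its array's 50th percentile in at least 4 arrays. Groups were taken from the labels, which call the samples biological replicates, and 4 group means were fitted over all arrays with limma 3.58.1 (lmFit, eBayes) in R 4.3.3, two-sided, with Benjamini-Hochberg adjustment over 12696 genes. The fit was checked on simulated data.

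Relatives were compared by exact permutation tests of the difference between their log2 values per array, over mice. The members and all gene lists were chosen with earlier results of these data known. Every array is given for called members whose arrays at a called dose lie outside the control range, up to 14 of the 20 that met this, by size of change, with all their probe sets above the filter; pathway genes are the 4 per list with the smallest F test p. Names in sequences were matched by symbol: 48 of the 59 members, tested or not, had promoter windows. Alternatives changed the filter, probe set, scaling, block, weights, variance model, groups fitted, an 18S covariate, and each array left out. For arrays, the number of mice limits the precision.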

Additional observations from a re-analysis of the deposited data

Results flagged for a closer look

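In 2 of the 56 groups of arrays looked at (14 members in 4 groups), 1 array stood apart from the others of its group. Chance flags about 1 in 20 groups. Rab22a read 7.35 in replicate 2 at 1.0 Gy, below the 7.56 to 7.57 of the 3 other mice and still above every control. Rab12 read 6.42 in replicate 2 at 3.0 Gy, below the 6.82 to 6.88 of the 3 others. That 3.0 Gy array is also the one with the lowest platelet mean and the highest B cell mean of its group, and the part of this in its Rab12 level was not tested.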

How the results depend on the processing

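Of the calls against control, 1 of 7 at 0.5 Gy (Rab10), 3 of 11 at 1.0 Gy (Rab10, Rab22a and Rab8b) and 17 of 27 at 3.0 Gy held under each of up to 28 alternative settings. Counts at 0.5 Gy, 6 higher and 1 lower, became 10 and 5 with array weights and 2 higher with the 18S covariate; the lower count became 2 with a filter at the 75th percentile, with repeated quantile normalization or with the most variable probe set, and 0 with probe sets averaged. At 1.0 Gy the 9 higher became 4 with the 18S covariate, and the 2 lower became 4 with array weights and 0 with probe sets averaged or the 18S covariate. At 3.0 Gy the 18 higher became 28 with repeated quantile normalization, which moved the median of all genes from 0.04 to 0.12. Higher calls among all genes rose from 2534 to 3691 with it. The 12 higher at 3.0 than at 1.0 Gy became 21 with that normalization, 7 with the stricter filter or averaged probe sets, 6 with only those 2 groups fitted and 0 with the 18S covariate, and the 3 lower became 5 with array weights or the most variable probe set and 0 with 18S. Between 3.0 and 0.5 Gy the 11 higher became 18 with that normalization and 0 with 18S, and the 2 lower became 4 with array weights or the most variable probe set, 1 when _x_at and _s_at probe sets were left out and 0 with 18S. The causes were not tested, and where 18S did not overlap between the groups compared, the 18S fit could not tell it and dose apart. Calls among all genes were counted again only for the repeated normalization against control. The other counts in this section therefore cannot be set against their own background. Leaving out each array gave 5 to 8 higher and 0 to 3 lower at 0.5 Gy, 8 to 10 and 2 to 3 at 1.0 Gy, 15 to 20 and 7 to 10 at 3.0 Gy, 0 to 0 in both directions between 1.0 and 0.5 Gy, 2 to 12 and 2 to 5 between 3.0 and 1.0 Gy, 6 to 13 and 2 to 4 between 3.0 and 0.5 Gy, and 19 to 27 by the F test. Without _x_at and _s_at probe sets Rab14 reversed to 0.10 at 3.0 Gy against control, 0.014 against 1.0 Gy and 0.076 against 0.5 Gy. Between 3.0 and 1.0 Gy, Rab24 reversed to 0.81 and Rab39b to -0.27 with the 18S covariate, and Rab6b to 0.76 with the most variable probe set. Same-numbered mice did not all deviate together. Their median r was 0.07, beside -0.03 for mice with other numbers, and single pairs ran from -0.45 to 0.49. It was over 0.1 in 11 of 24 pairs, and 7 of 17 arrays correlated best with their own number. The numbers were not taken as pairs, and whether they mark something shared was not tested. With the replicate number as a block the counts were 6 and 1, 10 and 3, and 19 and 8 at the 3 doses. Between doses they were 0 and 0, 10 and 4, and 11 and 3, and the F test called 24.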
